A study of Mus musculus with 6 samples.

Results

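Actin filaments, the transcription factor that controls their genes, and the contractile proteins of smooth muscle were followed through RNA-seq of 6 libraries labelled as mouse heart. The members were 10 named genes out of 27482 gene symbols in the deposited table, chosen by symbol and not by a threshold: the actins Actb, Actg1, Acta1 and Acta2, the transcription factor Srf, and the actin-binding or myosin-associated genes Tagln, Cnn1, Cnn2, Myl9 and Vcl. These genes and the gene lists used below were chosen with earlier results of these data known. All 10 members had a row in the table, and 7 had enough reads to be tested. The 3 libraries labelled AAV9-hFNDC4 came from male mice given an adeno-associated virus serotype 9 (AAV9) vector that overexpresses FNDC4, a protein with a fibronectin type III domain. The 3 libraries labelled AAV9-CTRL came from male mice given a control AAV9 vector. Both groups had cardiac ischemia/reperfusion (I/R), in which blood flow to the heart is blocked and then restored, and tissue was taken 24 h afterwards. The promoter and cell type that drive the vector, the age of the mice, and whether a library is 1 animal or a pool were not stated in the labels. The p-values therefore measure only how far these libraries scatter, and that scatter may be technical.

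Actins are the subunits of the thin filaments that give cells their shape and, with myosin, their pull. Actb and Actg1 are the cytoplasmic isoforms found in nearly every cell, Acta1 is the isoform of skeletal muscle that is re-expressed in the stressed heart, and Acta2 is the isoform of smooth muscle and myofibroblasts. SRF (serum response factor) binds a short DNA element, the CArG box, in the control regions of actin and contractile genes. It works with myocardin-related cofactors, which free actin monomers hold back, and with ternary complex factors of the ETS family, which respond to growth signals. In the heart, the vessel walls are rich in smooth muscle genes such as Acta2, Tagln, Cnn1 and Myl9, and healing scar contains Acta2-positive myofibroblasts.

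The start-site windows of the members were searched for the element that SRF binds, and examples with and without it are printed here for that reason. RefSeq windows on GRCm38.p6, running from 250 bases before to 50 bases after the annotated start, were matched for 8 of 10 members (all but Actb and Tagln). The 5 printed below belong to Srf, to the 2 actins that were lower under AAV9-hFNDC4 (Acta1 and Actg1), to Vcl, which did not pass the test, and to Acta2. Each reads 5′ to 3′ on the strand of its gene, with complete CArG boxes in capitals.
Srf, chr17:46556113-46556412, minus strand: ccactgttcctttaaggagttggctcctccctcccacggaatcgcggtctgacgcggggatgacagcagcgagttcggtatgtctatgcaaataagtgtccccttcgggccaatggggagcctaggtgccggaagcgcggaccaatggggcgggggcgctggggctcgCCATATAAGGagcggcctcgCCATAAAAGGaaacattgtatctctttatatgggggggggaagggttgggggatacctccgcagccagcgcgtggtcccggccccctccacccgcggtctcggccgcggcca
Acta1, chr8:123894726-123895025, minus strand: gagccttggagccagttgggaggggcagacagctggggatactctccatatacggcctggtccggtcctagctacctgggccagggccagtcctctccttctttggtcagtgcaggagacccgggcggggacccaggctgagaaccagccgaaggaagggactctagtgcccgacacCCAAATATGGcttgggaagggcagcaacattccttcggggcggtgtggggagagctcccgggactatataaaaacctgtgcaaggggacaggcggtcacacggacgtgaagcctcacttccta
Actg1, chr11:120348446-120348745, minus strand: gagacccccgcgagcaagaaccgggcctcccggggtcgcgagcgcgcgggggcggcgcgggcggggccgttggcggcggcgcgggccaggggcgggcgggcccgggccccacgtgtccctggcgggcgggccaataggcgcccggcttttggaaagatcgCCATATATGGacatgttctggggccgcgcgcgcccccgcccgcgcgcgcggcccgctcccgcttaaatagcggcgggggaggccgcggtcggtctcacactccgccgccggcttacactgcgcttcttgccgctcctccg
Vcl, chr14:20929148-20929447, plus strand: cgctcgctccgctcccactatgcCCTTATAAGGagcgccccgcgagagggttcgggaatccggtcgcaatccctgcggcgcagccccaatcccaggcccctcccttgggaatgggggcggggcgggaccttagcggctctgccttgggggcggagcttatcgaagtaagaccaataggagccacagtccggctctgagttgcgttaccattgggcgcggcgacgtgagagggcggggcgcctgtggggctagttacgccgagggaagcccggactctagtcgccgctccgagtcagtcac
Acta2, chr19:34255324-34255623, minus strand: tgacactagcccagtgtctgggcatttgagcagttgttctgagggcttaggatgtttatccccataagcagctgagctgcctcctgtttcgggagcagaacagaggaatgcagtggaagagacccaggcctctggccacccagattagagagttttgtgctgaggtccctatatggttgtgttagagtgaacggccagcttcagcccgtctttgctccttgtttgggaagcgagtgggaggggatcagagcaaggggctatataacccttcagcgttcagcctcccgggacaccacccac

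A complete CArG box was found in 6 of the 8 windows, against 1.81% of 27025 genes with a window of the same length. The members were chosen as Srf, actin and contractile genes, the classes known for this element, so the contrast follows from that choice. The element reads the same on both strands, and no other motif was searched. The Srf window held 2 boxes, CCATATAAGG at position -82 and CCATAAAAGG at -62, with positions counted from the start site and given for the first base of the box. Only 5 of the 27025 genes had 2 or more. Acta1 had its box at -73, Actg1 at -90, Vcl at -227, Cnn2 at -56 (CCTTATAAGG, the same 10 letters as in Vcl) and Myl9 at -161 (CCTAATAAGG). Acta2 and Cnn1 had no complete box in their windows, and Acta2 had 2 stretches that were a single letter off, at -84 and -34. A match of letters is a description of the window and does not show that SRF was bound.

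**Figure D1:**
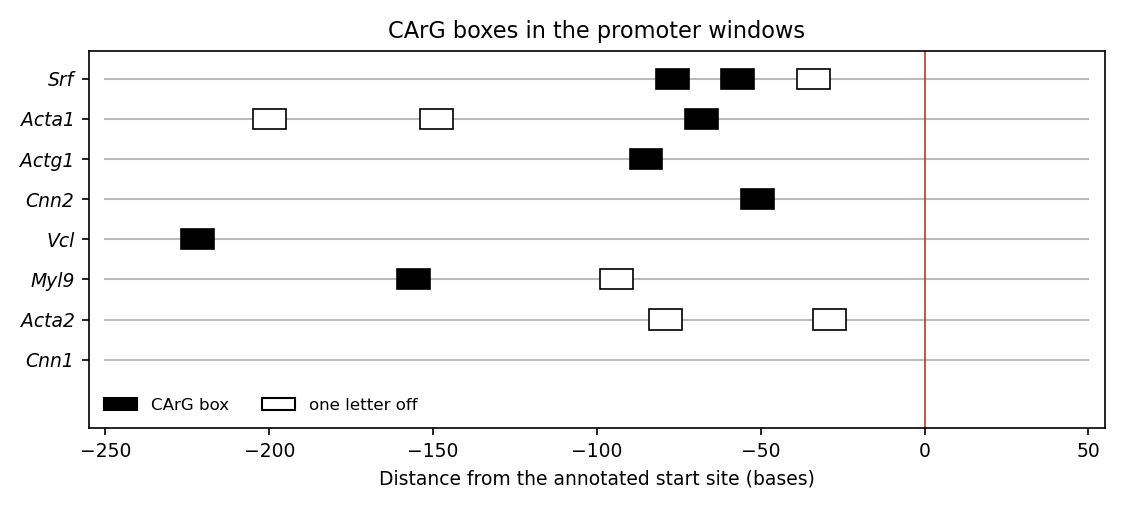
Position of CArG boxes (filled) and of stretches a single letter off (open) in the start-site windows of 8 members, in bases from the annotated start (red line). Srf had 2 complete boxes, at -82 and -62, Acta2 and Cnn1 had none, and the box of Vcl lay farthest from its start at -227.

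Total counts were 34419687 to 35149915 in the AAV9-hFNDC4 libraries and 32975817 to 36074046 in the AAV9-CTRL libraries. The number of genes with any reads was 18717 to 18863 in AAV9-hFNDC4 libraries and 20431 to 20870 in AAV9-CTRL libraries, and the part of this gap in the low counts of Cnn1, Tagln, Actc1, Fhl1 and Myh11 was not tested. The tissue label was checked against marker lists, using plain CPM (counts scaled to library size) with at least 1 CPM in 3 libraries as the mark of detection. Of 14 cardiomyocyte markers 3 were detected, of 10 listed mural cell markers (the pericytes and smooth muscle of vessels) 4, of 10 fibroblast markers 4, of 10 endothelial markers 3, of 10 leukocyte markers 4 and of 9 skeletal muscle markers 2. The cardiac markers Nkx2-5 and Myl7, the endothelial marker Emcn and the skeletal myosins Myh2 and Myh4 were at 0 in all 6 libraries. These values go against the label of heart tissue, so the groups are called by their vector. FNDC4 itself was not analysed here.

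The smooth muscle members were almost absent from all 6 libraries, whatever the vector. Myl9, the regulatory myosin light chain of smooth muscle, had 0 counts in every library, which allows up to 0.0143 CPM (3 counts over the 6 libraries). Cnn1, calponin of differentiated smooth muscle, had 0 counts in each AAV9-hFNDC4 library, against 2, 2 and 6 in the AAV9-CTRL libraries. Acta2, the smooth muscle actin, had 7, 6 and 4 counts in AAV9-hFNDC4 libraries and 23, 4 and 5 counts in AAV9-CTRL libraries. Tagln, transgelin or SM22, had 10, 6 and 2 counts in the AAV9-hFNDC4 libraries, against 15, 17 and 25 in the AAV9-CTRL libraries. These 4 genes never exceeded 25 counts in a library. Floors and intervals on such counts cover counting error only, because copies made by PCR are not independent molecules.

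Close relatives of the same 4 genes that many cell types use were abundant. Per exon length, as RPKM (reads per kilobase of exon scaled to library size), Acta2 stood at 0.0757 ± 0.0199 RPKM in AAV9-hFNDC4 libraries and 0.154 ± 0.150 RPKM in AAV9-CTRL libraries (SD, n = 3 libraries, as for every ± below), while Actb stood at 1271 ± 67.7 RPKM under AAV9-hFNDC4 and 1452 ± 89.4 RPKM under AAV9-CTRL. Tagln was at 0.102 ± 0.0667 RPKM under AAV9-hFNDC4 and 0.360 ± 0.10 RPKM under AAV9-CTRL, and its relative Tagln2, transgelin 2, at 106 ± 13.7 RPKM under AAV9-hFNDC4 and 235 ± 14.2 RPKM under AAV9-CTRL. Cnn1 was at 0 RPKM under AAV9-hFNDC4 and 0.0398 ± 0.0272 RPKM under AAV9-CTRL. Its relative Cnn2, the calponin of non-muscle cells, was at 106 ± 19.4 RPKM under AAV9-hFNDC4 and 159 ± 13.3 RPKM under AAV9-CTRL. Against the absent Myl9, the non-muscle regulatory light chain Myl12a was at 134 ± 9.49 RPKM in AAV9-hFNDC4 libraries and 217 ± 16.3 RPKM in AAV9-CTRL libraries. In each of these 4 pairs the smooth muscle gene was the scarcer one in both groups. The families also hold relatives that were scarcer still. Tagln3 was at 0.00718 RPKM under AAV9-hFNDC4 and 0.180 RPKM under AAV9-CTRL, and the cardiac actin Actc1 at 0.00627 and 0.128 RPKM. The smooth muscle actin Actg2 stood above Acta2, at 1.02 RPKM under AAV9-hFNDC4 and 1.70 RPKM under AAV9-CTRL.

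The order of the 10 members by mean RPKM was the same under both vectors. Actb was highest, followed by Cnn2 and Actg1, whose ranges overlapped within each group (84.8 to 123 RPKM for Cnn2 and 75.7 to 103 RPKM for Actg1 in AAV9-hFNDC4 libraries, 143 to 167 RPKM and 146 to 163 RPKM in AAV9-CTRL libraries). Srf came next at 21.2 ± 0.907 RPKM under AAV9-hFNDC4 and 38.0 ± 2.51 RPKM under AAV9-CTRL. Vcl followed at 11.1 ± 0.966 RPKM under AAV9-hFNDC4 and 12.3 ± 1.84 RPKM under AAV9-CTRL. Acta1 stood below Vcl in both groups, at 2.74 ± 0.281 RPKM under AAV9-hFNDC4 and 9.46 ± 0.387 RPKM under AAV9-CTRL, without overlap of the ranges of these 2 genes. Tagln and Acta2 overlapped within both groups, and Cnn1 and Myl9 were last.

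**Figure D2:**
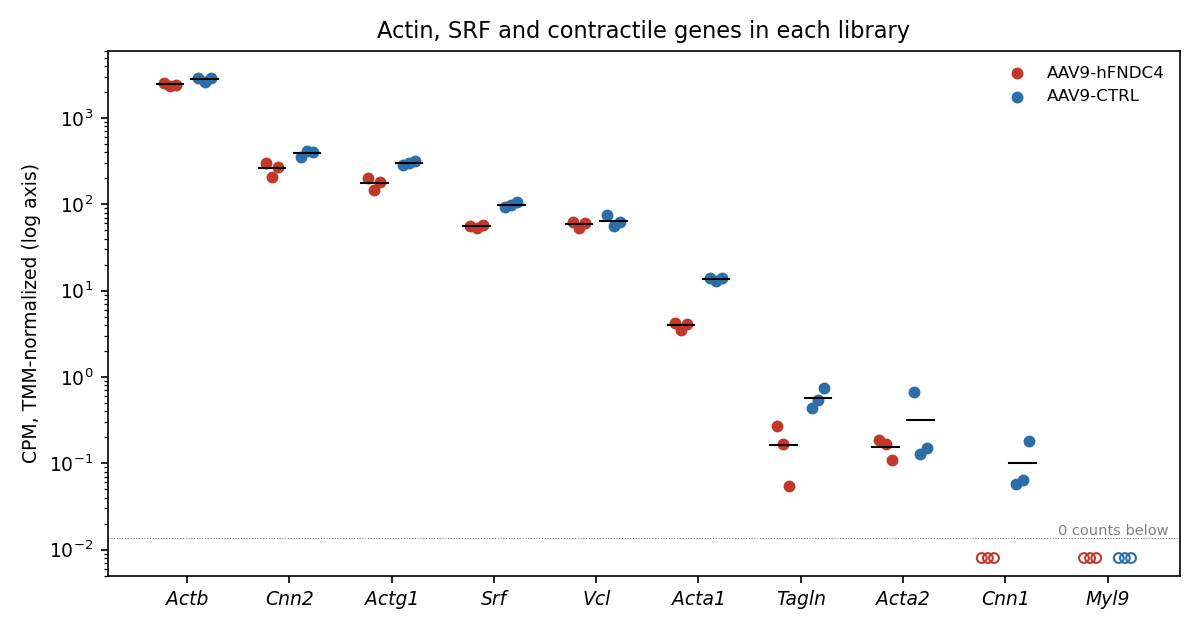
Level of each member in each library as TMM-normalized CPM on a log axis (points), with the group mean as a bar, AAV9-hFNDC4 in red and AAV9-CTRL in blue, and open circles for libraries with 0 counts. Actb lay at 2313 CPM or more in every library, Actb, Srf, Actg1, Cnn2, Acta1 and Tagln lay lower in all AAV9-hFNDC4 libraries than in any AAV9-CTRL library, and Acta2 and Vcl overlapped between the groups.

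The comparison of AAV9-hFNDC4 with AAV9-CTRL asked how overexpression of FNDC4 goes with expression after I/R. Srf fell, and so did the cytoplasmic actin Actg1, the skeletal actin Acta1 and calponin Cnn2, with levels 1.5-fold to 3.46-fold lower. Actb, the most abundant member, and Vcl did not pass. Of the 7 members tested, 5 were lower and 0 higher (edgeR quasi-likelihood test, Benjamini-Hochberg adjusted p under 0.05 over 14663 genes). The fifth was Tagln, at 18 counts under AAV9-hFNDC4 and 57 under AAV9-CTRL. It would not have reached the test without the AAV9-CTRL libraries, so its entry favoured a difference. With at least 1 CPM required in 3 libraries, where Tagln was not tested, 4 members were lower and 0 higher. At an unadjusted p under 0.05 the counts were also 5 and 0, as they were with DESeq2 and with limma-voom. Over all genes tested, 47.1% passed in either direction, 25% lower and 22.1% higher, and the groups were clear of each other in 56.6%, with AAV9-hFNDC4 below in 29.5% and above in 27.1%. The median log2 fold change was -0.76 over the 7 members and 0.01 over all genes tested. Because the members were chosen with earlier results known, this contrast describes them and is not a test.

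Srf, the transcription factor itself (chromosome 17, 46546838 to 46558267, GRCm38.p6), had 56.0, 52.8 and 57.5 CPM in the AAV9-hFNDC4 libraries and 93.4, 98.4 and 106 CPM in the AAV9-CTRL libraries. Every AAV9-hFNDC4 library lay below every AAV9-CTRL library, and the spread within each group was small beside the gap. The log2 fold change was -0.84 (SE 0.10, adjusted p = 9.22e-05), a level 1.79-fold lower. Srf is among the genes its own protein is known to regulate, and its window is the one with 2 CArG boxes printed above.

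The genes whose profile over the 6 libraries lay nearest to that of Srf, among 9183 well expressed genes outside the lists, were Tbrg1, S100a10 and Rab5c. The root mean square distance on the log2 scale was 0.03, 0.04 and 0.04 for them in that order, against a spread of 0.42 of Srf about its own mean. Tbrg1, for example, had 190 ± 4.63 CPM under AAV9-hFNDC4 and 334 ± 28.8 CPM under AAV9-CTRL. The same measure for Acta2 named Zswim4, Pakap and Gabpa, at 0.10, 0.12 and 0.13, but Acta2 rests on so few counts that its profile follows the 23 counts of AAV9-CTRL replicate 1.

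Actb (chromosome 5, 142903115 to 142907976), the main cytoplasmic actin and a common reference gene, had 2572, 2313 and 2437 CPM in AAV9-hFNDC4 libraries and 2889, 2589.6 and 2885 CPM in AAV9-CTRL libraries. The highest AAV9-hFNDC4 library lay just under the lowest AAV9-CTRL library. The log2 fold change of -0.19 (SE 0.11, adjusted p = 0.162) did not pass, and 1.96 standard errors either side ran from -0.40 to 0.02. With a correction for transcript length the log2 fold change was 0.04 (SE 0.09).

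Actg1 (chromosome 11, 120345687 to 120348495), the second cytoplasmic actin, had 201, 148 and 183 CPM under AAV9-hFNDC4, against 285, 299.96 and 318 CPM under AAV9-CTRL. The groups were far apart, with AAV9-hFNDC4 replicate 2 the lowest. The log2 fold change was -0.76 (SE 0.12, adjusted p = 0.000437). Actg1 has many processed copies in the genome: 51.1% of the 100-base windows of its longest GENCODE transcript occurred in transcripts of other genes, 44.4% in the pseudogene Gm12715 alone. For Actb 1.10% of such windows were shared, with Lrrc58, and the other 8 members shared none. With 50-base windows the shares were 56.7% for Actg1, 14.2% for Actb, 2.22% for Acta1 and 0.35% for Acta2. The remaining members shared none at that length either. The level of Actg1 depends on how the authors' counting treated such reads, which the sources used here do not state.

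Acta1 (chromosome 8, 123891758 to 123894775), the skeletal muscle actin, had 159, 126 and 152 counts in the AAV9-hFNDC4 libraries and 486, 409 and 466 in the AAV9-CTRL libraries. In CPM these were 4.25, 3.49 and 4.13 under AAV9-hFNDC4 and 14.1, 13.04 and 13.9 under AAV9-CTRL, with little spread inside either group. Acta1 changed most among the members above 1 CPM, with a log2 fold change of -1.79 (SE 0.17, adjusted p = 2.44e-05), 3.46-fold lower. Its companions of skeletal muscle were scarce beside it: the summed CPM of the 8 measured skeletal muscle markers, Acta1 included, was 4.60 to 5.53 in AAV9-hFNDC4 libraries and 15.2 to 16.7 in AAV9-CTRL libraries, and without Acta1 at most 2.66 in any library.

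The make-up of the actin pool differed between the groups. As a share of the counts per exon length over 6 actin genes, Actb took 92.6%, 93.8% and 92.9% in the AAV9-hFNDC4 libraries and 90.5%, 89.1% and 89.6% in the AAV9-CTRL libraries. Actg1 took 6.62 ± 0.642% under AAV9-hFNDC4 and 9.55 ± 0.695% under AAV9-CTRL. Acta1 took 0.200 ± 0.0107% under AAV9-hFNDC4 and 0.585 ± 0.0103% under AAV9-CTRL. The groups were separate for all 3 shares, and the exact two-sided permutation test gave p = 0.1 for each, the smallest value that 3 against 3 libraries can give. The shares are parts of 1 total, so these are not 3 separate results. The higher Actb share mirrors the lower Actg1 and Acta1 shares, and Actb itself was not called higher. The Actg1 share also carries the limit of shared sequence given above. In plain counts, with exon lengths of 1920 bases for Actb and 1952 bases for Actg1, Actb outnumbered Actg1 by 12.8, 15.7 and 13.3 to 1 in AAV9-hFNDC4 libraries and by 10.1, 8.63 and 9.08 to 1 in AAV9-CTRL libraries. Acta2 took 0.00554 ± 0.00141% under AAV9-hFNDC4 and 0.00940 ± 0.00889% under AAV9-CTRL, with overlap.

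**Figure D3:**
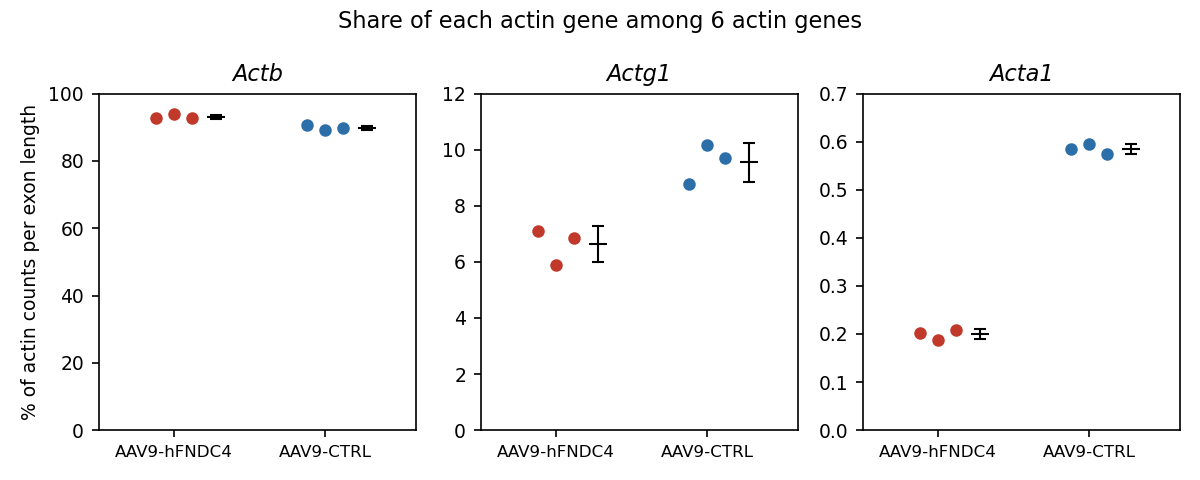
Share of Actb, Actg1 and Acta1 in the summed counts per exon length of 6 actin genes (percent, each panel on its own axis from 0), per library (points) with the mean and SD (black), AAV9-hFNDC4 in red and AAV9-CTRL in blue. Actb took 89.1% or more of the pool in every library, and the shares of Actg1 and Acta1 were lower in every AAV9-hFNDC4 library than in any AAV9-CTRL library.

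The other actin genes were minor. Actg2, the enteric smooth muscle actin, had 74, 41 and 39 counts in AAV9-hFNDC4 libraries and 75, 91 and 63 in AAV9-CTRL libraries, with overlap and a log2 fold change of -0.73 (SE 0.36, adjusted p = 0.11) that did not pass. Without AAV9-hFNDC4 replicate 1 it was -1.07 and passed (adjusted p = 0.0487), and with the length correction it was -0.33 (adjusted p = 0.462). Actc1, the cardiac actin and the chief sarcomeric actin of the adult heart, had 0, 1 and 0 counts under AAV9-hFNDC4 and 7, 3 and 9 counts under AAV9-CTRL. Its ratio of AAV9-CTRL over AAV9-hFNDC4 was 21.1, with an exact 95% counting interval from 3.35 to 877, and it had too few reads for the test.

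Among the contractile genes, Cnn2 (chromosome 10, 79988600 to 79995400) had 303, 209 and 270.2 CPM in AAV9-hFNDC4 libraries and 353, 411 and 407 CPM in AAV9-CTRL libraries. AAV9-hFNDC4 replicate 2 stood lowest, and the groups were clear of each other. Its log2 fold change was -0.58 (SE 0.14, adjusted p = 0.00457). Vcl, vinculin of cell adhesions (chromosome 14, 20929383 to 21033676), had 61.9, 52.8 and 61.3 CPM under AAV9-hFNDC4 and 75.2, 56.0 and 62.7 CPM under AAV9-CTRL, so the groups overlapped. The log2 fold change of -0.14 (SE 0.13, adjusted p = 0.401) did not pass, with 1.96 standard errors either side from -0.39 to 0.11. Without AAV9-CTRL replicate 1, the highest library, it was 0.01, and with the length correction it was -0.29 (SE 0.12, adjusted p = 0.0712). In GENCODE vM21, 39.7% of the exon bases of Vcl overlap Ap3m1 on the opposite strand, and without a stated strand setting these reads cannot be told apart.

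Tagln (chromosome 9, 45929628 to 45936058) had 0.267, 0.166 and 0.0543 CPM in AAV9-hFNDC4 libraries and 0.434, 0.542 and 0.748 CPM in AAV9-CTRL libraries. It would not have passed the low-count filter without the AAV9-CTRL libraries, so its entry favoured a difference. Its log2 fold change was -1.80 (SE 0.63, adjusted p = 0.0357), and 60.9% of its exon bases overlap genes on the opposite strand, among them Pcsk7 (29.0 ± 0.930 CPM under AAV9-hFNDC4 and 30.5 ± 3.09 CPM under AAV9-CTRL). The call was lost when any of 5 libraries was left out, with adjusted p from 0.0567 to 0.146, and kept only without AAV9-hFNDC4 replicate 1 (0.038). It was also lost with the replicate number as a block (log2 fold change -1.85, adjusted p = 0.0823), with the length correction (-1.46, adjusted p = 0.0788) and with no low-count filter (-1.78, adjusted p = 0.0706).

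Acta2 (chromosome 19, 34240336 to 34255585), Cnn1 (chromosome 9, 22099221 to 22109221) and Myl9 (chromosome 2, 156775408 to 156781657) were not tested for want of counts. For Acta2 the libraries summed to 17 counts under AAV9-hFNDC4 and 32 under AAV9-CTRL, of which 23 came from AAV9-CTRL replicate 1, and without that library the AAV9-CTRL sum was 9. With no low-count filter the log2 fold change of Acta2 was -1.005 (SE 0.93, adjusted p = 0.452). With its 10 AAV9-CTRL counts taken as exact, Cnn1 was at least 3.70-fold lower against a floor of 3 counts over the AAV9-hFNDC4 group. Counting error on those 10 counts is not in this figure, so the true bound is lower. In edgeR with no low-count filter its adjusted p was 0.0805. Nothing can be said of Myl9, which was at 0 throughout.

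**Figure D4:**
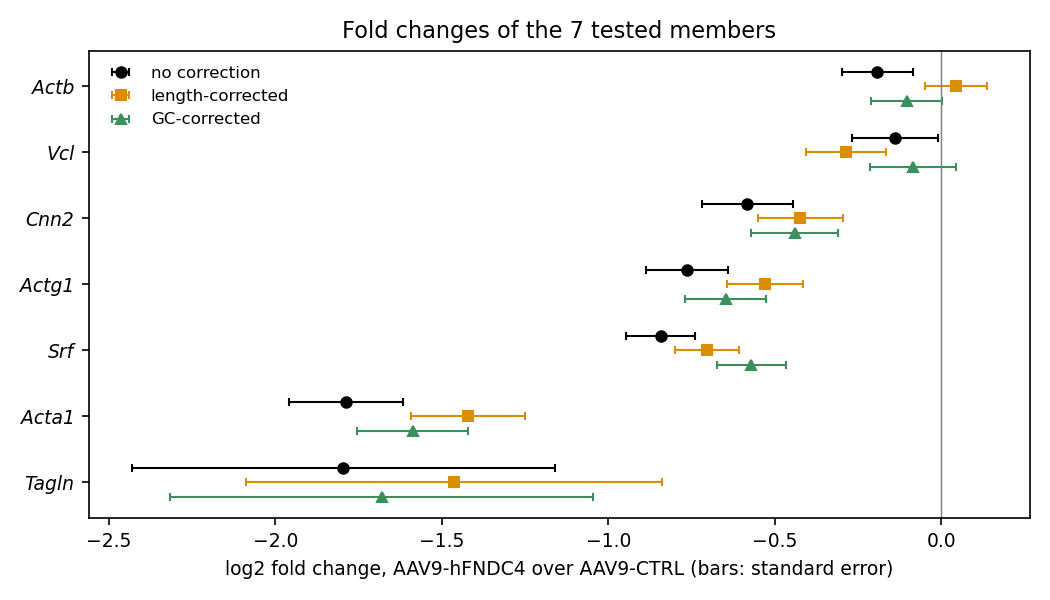
Log2 fold change of the 7 tested members, AAV9-hFNDC4 over AAV9-CTRL, with standard errors (bars), without correction (circles), with a correction for transcript length (squares) and for GC content (triangles). Srf, Actg1, Cnn2 and Acta1 lay below 0 by more than 3 standard errors in all 3 fits, while Actb moved to 0.04 with the length correction.

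Fold changes in these libraries went with transcript length, with a median of -0.495 (log2) among the shortest 1340 genes and 0.456 among the longest 1340. Acta1 and Tagln lay in bin 2 of 10 by length, Actb and Actg1 in bin 3, Cnn2 and Srf in bin 4 and Vcl in bin 8. With a correction for length, Srf was at -0.70 (SE 0.10), Actg1 at -0.53 (SE 0.11), Acta1 at -1.42 (SE 0.17) and Cnn2 at -0.42 (SE 0.13), and all 4 still passed, with adjusted p-values of 0.000299, 0.00383, 0.000153 and 0.0193. Within the AAV9-hFNDC4 group, replicate 2 had the lowest CPM for all 6 members above 1 CPM, as it had for 35.1% of all genes tested. In AAV9-CTRL libraries the lowest was replicate 1 for 3 of them and replicate 2 for the other 3.

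The partners of SRF did not move as one. Of 11 tested partners and cofactors, 3 were higher, 1 was lower and 7 did not pass, and with the length correction 2 were higher and 2 lower. The 27.3% higher and 9.09% lower compare with 22.1% and 25% of all genes tested. Mrtfb, a myocardin-related cofactor that carries actin signals to SRF, was higher at 35.6 ± 1.99 CPM under AAV9-hFNDC4 and 23.0 ± 5.47 CPM under AAV9-CTRL (log2 fold change 0.63, SE 0.16, adjusted p = 0.00644), but with the length correction it was at 0.25 (adjusted p = 0.117). Its sister Mrtfa had 33.6 ± 2.76 CPM under AAV9-hFNDC4 and 30.7 ± 4.95 CPM under AAV9-CTRL and did not pass (log2 fold change 0.13, SE 0.14). Scai, which represses the myocardin-related cofactors, was higher at 28.6 ± 1.09 CPM under AAV9-hFNDC4 and 15.2 ± 4.29 CPM under AAV9-CTRL (log2 fold change 0.91, SE 0.18, or 0.47 with the length correction, adjusted p = 0.0223). Elk1, a ternary complex factor, was higher at 48.6 ± 2.42 CPM under AAV9-hFNDC4 and 32.3 ± 2.36 CPM under AAV9-CTRL (log2 fold change 0.59, SE 0.11).

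The single lower partner was Fhl2, a LIM-domain protein that binds SRF and is itself an SRF target. It had 47, 26 and 51 counts in AAV9-hFNDC4 libraries and 251, 226 and 236 counts in AAV9-CTRL libraries, far apart, with a log2 fold change of -2.67 (SE 0.27, adjusted p = 3.4e-05). Those that did not pass were Mrtfa, Elk3, Elk4, Rhoa, Diaph1, Csrp1 and Csrp2, with log2 fold changes from -0.17 to 0.20. Elk3, a ternary complex factor, had 119 ± 12.6 CPM under AAV9-hFNDC4 and 104 ± 12.2 CPM under AAV9-CTRL. Diaph1, a formin that builds actin filaments, was at -0.15 (SE 0.13), and with the length correction it was at -0.34 and passed (adjusted p = 0.0331). Myocd, myocardin, the cofactor of cardiac and smooth muscle, had 0 counts under AAV9-hFNDC4 and 1 under AAV9-CTRL. Fhl1 had 1 count under AAV9-hFNDC4 and 13 under AAV9-CTRL, and Abra was at 0 in all libraries.

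Among all genes with a CArG box in the start-site window, members left out, 171 were tested, of which 51 (29.8%) were lower and 33 (19.3%) higher, with a median log2 fold change of -0.10. Genes with a window and no box were lower in 25.6% and higher in 22.1% of 11327 tested, with a median of 0.00. The share lower in the members with a box that were tested, which were Srf, Actg1, Acta1, Cnn2 and Vcl, was 4 of 5. No tested member had a window without a box, so this share repeats the member result and gives no comparison by box.

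Of 14 tested smooth muscle contractile genes outside the members, 2 were higher (14.3%) and 6 lower (42.9%), with a median log2 fold change of -0.35, against 22.1% and 25% of all genes tested. With the length correction 1 was higher and 5 lower, with a median of -0.26. Tagln2, Pdlim7 (a LIM protein of actin fibres) and Myl6 (the essential myosin light chain) were lower, with log2 fold changes of -1.15 (SE 0.12), -1.07 (SE 0.13) and -0.85 (SE 0.10). Myl6 was at -0.55 with the length correction. Mylk, the kinase that switches on smooth muscle myosin, was higher by 0.62 (SE 0.12), and with the length correction it was at 0.27 and did not pass (adjusted p = 0.106). Smtn, at 89.3 CPM under AAV9-hFNDC4 and 89.9 CPM under AAV9-CTRL, did not pass, and neither did Des. Most of the genes in this list also serve cells that are not muscle. Myh11, the smooth muscle myosin heavy chain and the defining gene of the type, had 6, 4 and 3 counts in AAV9-hFNDC4 libraries and 27, 7 and 13 counts in AAV9-CTRL libraries.

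Of 15 tested genes of non-muscle actomyosin, 6 were higher (40%) and 7 lower (46.7%), against 22.1% and 25% of all genes tested. The median log2 fold change was 0.22, and it was -0.03 with the length correction. With the length correction 1 was higher and 6 lower, and with the GC correction 4 and 7. The lower ones were the light chains Myl12a (log2 fold change -0.70, SE 0.11), Myl12b and Myl6, the tropomyosins Tpm1, Tpm3 and Tpm4, and the phosphatase subunit Ppp1r12c. Tpm3 was at 284 ± 3.23 CPM under AAV9-hFNDC4 and 399.9 ± 36.4 CPM under AAV9-CTRL. The higher ones were the heavy chains Myh9 and Myh14, the kinases Mylk, Rock1 and Rock2, and Ppp1cb.

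Focal adhesion adaptors, the class Vcl belongs to, had 7 higher (28%) and 7 lower (28%) of 25 tested, near the 22.1% and 25% of all genes tested. The counts were 4 and 6 with the length correction and 10 and 5 with the GC correction. Lpp, a LIM protein, was higher by 1.26 (SE 0.14) at 81.9 ± 8.75 CPM under AAV9-hFNDC4 and 34.3 ± 6.05 CPM under AAV9-CTRL. Tln2, talin 2, which binds vinculin, was higher by 1.07 (SE 0.14). With the length correction Lpp was at 0.67 and Tln2 at 0.55, and both passed (adjusted p = 0.00091 and 0.00221). Trip6, a zyxin relative, was lower, at -0.65 (SE 0.11), as was Pdlim7.

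Genes of actin filament turnover were lower more often than higher, with 16 lower, 1 higher and 12 that did not pass among 29 tested, and a median log2 fold change of -0.43. Tmsb10 and Pfn1, which bind actin monomers, were lower. Tmsb10 stood at 135 ± 12.4 CPM under AAV9-hFNDC4 and 309 ± 29.2 CPM under AAV9-CTRL (log2 fold change -1.19, SE 0.11), and Pfn1, profilin, at 329 ± 20.4 CPM under AAV9-hFNDC4 and 626 ± 45.9 CPM under AAV9-CTRL (log2 fold change -0.93, SE 0.11). Cfl1, cofilin, which severs filaments, was lower with -0.72 (SE 0.10), and Arpc3 of the ARP2/3 branching complex with -0.70 (SE 0.10). With the length correction Tmsb10 was at -0.77, Pfn1 at -0.48 and Arpc3 at -0.26, and all 3 passed (adjusted p = 0.000195, 0.0018 and 0.0439). With the length correction, 12 of the 29 were lower and 0 higher, with a median of -0.24. In that fit 2831 of all 13392 genes were lower and 3006 higher. Without the correction, the share of 55.2% lower compares with 25% of all genes tested. The list was chosen with earlier results of these data known and was not tested as a set.

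**Figure D5:**
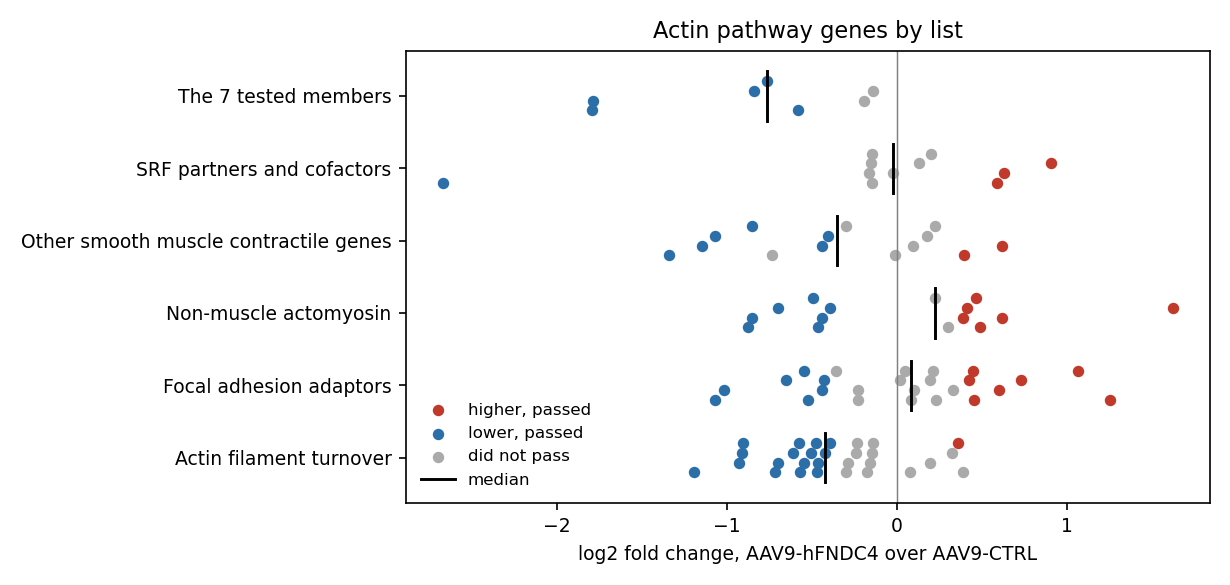
Log2 fold change, AAV9-hFNDC4 over AAV9-CTRL, of the 7 tested members and of the tested genes of 5 actin-related lists (points; red higher and blue lower past an adjusted p of 0.05, grey not passed), with the median of each row as a black line. The medians were -0.76 for the members, -0.43 for filament turnover and 0.22 for non-muscle actomyosin. With the length correction, not drawn here, they were -0.53, -0.24 and -0.03.

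Markers of several other cell types differed between the groups as well. The summed CPM of 9 measured mural cell markers was 625 to 686 in AAV9-hFNDC4 libraries and 380.5 to 434 in AAV9-CTRL libraries. It was mostly Cspg4 and Pdgfrb, which fibroblast-like cells also express. Des, at 84.3 CPM under AAV9-hFNDC4 and 79.2 CPM under AAV9-CTRL, did not pass (log2 fold change 0.09, edgeR adjusted p = 0.627). Mcam and Notch3 were lower, and Rgs5, a defining pericyte marker, had 7 counts under AAV9-hFNDC4 and 9 under AAV9-CTRL. The sum of 9 measured fibroblast markers was 2615 to 3173 CPM in AAV9-hFNDC4 libraries and 1784 to 2227 CPM in AAV9-CTRL libraries. It was mostly Col1a2, Col3a1 and Pdgfra, which were called higher, and Col1a1, which did not pass. Postn had 3 counts under AAV9-hFNDC4 and 22 under AAV9-CTRL, and Fap had 4 and 24, the other way. Dcn, Lum and Tcf21 were at or near 0. The sum of 14 cardiomyocyte markers was 45.5 to 46.9 CPM in AAV9-hFNDC4 libraries and 58.8 to 59.4 CPM in AAV9-CTRL libraries, mostly Tnnt2. The sum for leukocyte markers was 18.5 to 21.1 CPM under AAV9-hFNDC4 and 36.9 to 44.4 CPM under AAV9-CTRL, with 3 of 5 tested lower. Of these, Itgam (0 counts under AAV9-hFNDC4 and 168 under AAV9-CTRL) and Cd79a (8 and 69) reached the test only through the AAV9-CTRL libraries. Without those libraries Notch3 (21 and 113) would not have reached it either, so entry favoured a difference for these genes. Endothelial markers summed to 4.16 to 5.58 CPM under AAV9-hFNDC4 and 5.39 to 8.2 CPM under AAV9-CTRL, ranges that overlap, and 0 of 5 tested passed in either direction. The part of these differences in the changes of the actin genes was not tested. In bulk RNA, fewer cells of a type and less RNA per cell cannot be told apart.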

How the data were processed

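RNA-seq was made from 6 libraries, 3 AAV9-hFNDC4 and 3 AAV9-CTRL. The authors deposited raw read counts per gene symbol with no normalization. The submitters' processing notes name fastp, HISAT2, HTSeq, R 3.2.0 and DESeq2 with GRCm38 (mm10); the sources used here state no annotation release, strand setting or rule for reads with several matches. Per the labels' protocols, TRIzol RNA went into VAHTS Universal V6 libraries.

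Testing used edgeR 4.0.16 in R 4.3.3: filterByExpr defaults (14663 of 27482 genes kept), TMM, robust quasi-likelihood F test, Benjamini-Hochberg adjustment over all genes tested, threshold 0.05. The test was checked on simulated counts in which few genes changed and no trend with length was built in. That check does not cover data like these, in which 47.1% of genes passed. SE is the absolute log2 fold change divided by the square root of F. CPM and RPKM use TMM library sizes, and RPKM the exon length of GENCODE vM21 basic genes. Alternatives were RLE and upper-quartile scaling, other filters, DESeq2 1.42.0, limma-voom 3.58.1, a replicate block, loess corrections (span 0.4) for exon length and GC (13392 tested genes, 91.3%), and leaving out each library.

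The members and the 6 pathway lists were chosen with earlier results of these data known. Named are all members, all tested SRF partners, the other actin genes, up to 4 genes per further list with the smallest p, and for Srf and Acta2 the 3 genes with the nearest centred log2(CPM + 0.5) profile and a mean of at least 10 CPM. Relatives, overlapping genes, markers and further list members given beside them were chosen after their values were seen.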

Additional observations from a re-analysis of the deposited data

How the results depend on the processing

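Of the 7 tested members, Srf, Actg1, Acta1 and Cnn2 kept their direction and call in all 15 alternatives, with log2 fold changes from -0.86 to -0.57, -0.86 to -0.53, -1.84 to -1.42 and -0.70 to -0.42. Tagln lost its call in 8 of 14. Actb turned to 0.044 with the length correction (range of adjusted p over its alternatives 0.0805 to 0.728), and Vcl, from -0.232 to 0.013 when single libraries were left out, turned when AAV9-CTRL replicate 1 was the one removed (adjusted p over all its alternatives 0.0712 to 0.945), while the length correction gave -0.286. Members called lower numbered 4 or 5 in every alternative and none was called higher. The members fitted were not the same throughout. Tagln was left out with at least 1 CPM in 3 libraries, and Acta2 and Cnn1 came in with no low-count filter. Over all genes, whose number also differed between fits, the alternatives called 2831 to 4134 lower and 2299 to 3603 higher. The main fit called 3668 lower (25%) and 3240 higher (22.1%).

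Of 88 listed genes tested, 18 were called higher (20.5%) and 34 lower (38.6%), against 22.1% and 25% of all genes tested. With the length correction 8 were higher and 27 lower, beside 3006 higher and 2831 lower of all 13392 genes in that fit. Partners that had not passed changed sign without passing: Rhoa to 0.037 and Csrp1 to 0.088 with the length correction, Csrp1 to 0.022 with the GC correction, Csrp2 to 0.181, 0.038 and, without AAV9-CTRL replicate 2, 0.046 in the length, GC and left-out fits, Diaph1 to 0.004 without AAV9-CTRL replicate 1 (left-out range -0.267 to 0.004), and Elk4 (left-out range -0.236 to 0.256) to 0.033, 0.004, 0.008, 0.02, 0.098 and 0.256 with upper-quartile scaling, limma-voom, the replicate block, the GC correction and without AAV9-hFNDC4 replicate 1 or AAV9-CTRL replicate 1. The cause was not tested. The Acta1 share of the actin pool differed by -0.385 percentage points, and by -0.29 in plain counts, which are not divided by exon length.

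The replicate number as a block gave 2663 higher and 3080 lower genes, against 3240 and 3668 without it, and ended the call of Tagln among the members. Same-numbered libraries did not deviate together (correlations of -0.14, -0.28 and -0.12), so the number is not taken as a pairing. In the main fit Acta2, Cnn1 and Myl9 had too few counts to be tested.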
